A study of Mus musculus with 35 samples.

Results

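Fibroblast growth factors (FGFs) and their receptors were followed over the hippocampus and the amygdala of A/J and C57BL/6J mice, which are inbred strains. The members were 9 genes of the 15967 named on the arrays, taken as all array probes whose platform gene symbol was Fgf1, Fgf9, Fgf10, Fgf12, Fgf13, Fgf14, Fgfr1, Fgfr2 or Fgfr3. They had 19 of the 24620 probes on Illumina MouseRef-8 arrays, which carry long oligonucleotides on beads. All animals were test-naive adult males of 3 to 4 months, and no agent or transgene was used. The 4 groups were A/J hippocampus (9 arrays), A/J amygdala (8 arrays), C57BL/6J hippocampus (9 arrays) and C57BL/6J amygdala (9 arrays), 35 arrays in all. By the methods of the study, tissue was punched from frozen sections, from the left hippocampus and from the amygdala of both sides. The labels did not tie arrays to animals, so p-values measure the spread between these arrays. Levels are log2 normalized intensities, differences are hippocampus minus amygdala or A/J minus C57BL/6J, and a probe was called at an adjusted p under 0.01.

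As background, secreted FGFs bind tyrosine kinase receptors on the cell surface together with heparan sulfate chains, and the receptors signal mainly through the Ras and MAP kinase pathway. Fgf1, Fgf9 and Fgf10 encode such ligands, and Fgfr1, Fgfr2 and Fgfr3 encode receptors. Fgf12, Fgf13 and Fgf14 belong to the intracellular FGFs, which are not secreted in the classical way and bind the tails of voltage-gated sodium channels in neurons. In the brain, the receptors of the family are known for roles in glia, progenitors and axons.

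The stretch before the annotated gene start is shown for the 3 genes whose probes were called between regions, Fgf10, Fgf13 and Fgf12, since the comparison of regions turned on them. Sequences are from RefSeq (GRCm38.p6), 250 bases long and given 5′ to 3′ on the strand of the gene. Fgf10 lay on the plus strand (chr13:118714449-118714698), Fgf13 on the minus strand (chrX:59585573-59585822) and Fgf12 on the minus strand (chr16:28753244-28753493). Capitals mark matches on either strand to CCAAT or to the GC box GGGCGG.
Fgf10: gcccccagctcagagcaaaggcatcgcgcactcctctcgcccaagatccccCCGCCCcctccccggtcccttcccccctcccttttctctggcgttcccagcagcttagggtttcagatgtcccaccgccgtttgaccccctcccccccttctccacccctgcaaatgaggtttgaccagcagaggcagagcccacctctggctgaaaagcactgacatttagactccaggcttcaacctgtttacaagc
Fgf13: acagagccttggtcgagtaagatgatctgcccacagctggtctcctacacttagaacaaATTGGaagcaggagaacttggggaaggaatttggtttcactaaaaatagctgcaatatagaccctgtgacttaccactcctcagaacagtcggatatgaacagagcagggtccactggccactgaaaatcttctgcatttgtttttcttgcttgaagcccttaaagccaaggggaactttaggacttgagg
Fgf12: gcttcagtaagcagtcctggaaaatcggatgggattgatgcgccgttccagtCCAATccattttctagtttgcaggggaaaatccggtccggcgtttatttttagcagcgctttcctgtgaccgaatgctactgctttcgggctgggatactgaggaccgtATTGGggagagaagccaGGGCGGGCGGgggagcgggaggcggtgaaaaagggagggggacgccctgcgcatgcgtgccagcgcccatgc
Fgf10 had 1 GC box, 199 bases before the start, Fgf13 had 1 CCAAT match, 191 bases before it, and Fgf12 had 2 of each, the GC boxes overlapping. TATAAA and TGACG were also searched on both strands and matched in none of the 3 stretches. Over 32851 annotated stretches of this length, 33.8% held CCAAT, 32.7% GGGCGG, 12.4% TATAAA and 17.8% TGACG. The G+C content was 61.2% for Fgf10, 45.6% for Fgf13 and 58.4% for Fgf12, against a median of 52.4% over all stretches. With member stretches on 1 chromosome left out, 14 such stretches remained for 7 of the 9 genes, 4 of them for Fgf12 and 4 for Fgf13. Which start a probe's transcript used was not tested. Fgf1 and Fgfr1 were not shown.

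The number of detected probes, at a detection p under 0.01, ran between 6099 and 11039 per array and overlapped between the 4 groups. Its median was higher in A/J in both regions, at 9506 against 8696 in C57BL/6J for hippocampus and 9023 against 7944 for amygdala. Markers of the labelled regions followed the labels. All 4 hippocampus markers tested (Prox1, C1ql2, Zbtb20 and Neurod2) were called higher in hippocampus, and all 3 amygdala markers tested (Isl1, Cyp26b1 and Tac1) lower there, against 12.2% of all tested probes called by region. Isl1 was detected on 0 of 18 hippocampus and 17 of 17 amygdala arrays. It entered the tested probes only through amygdala, so its call is no test. The lists were chosen with earlier results of these data known. The paper itself places Neurod2 and Isl1 in a gene group that separated the regions on these arrays. The markers are therefore a description and no independent check of the labels. The arrays lay on 11 chips, which were sorted by the first digits of their IDs into 2 sets of 21 and 14 arrays, called chip lots here.

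Probes were tested if detected on at least 8 arrays, which held for 8 of the 19 member probes and for 42.3% of all probes. The 8 probes covered 7 genes: Fgf1, Fgf9, Fgf10, Fgf12 (both its probes), Fgf13, Fgfr2 and Fgfr3. Neither Fgf14 (3 probes) nor Fgfr1 (2 probes) was detected on any array, so no level was available for these genes. The share of all probes without detection on any array was 44.7%. Among genes with more than 1 probe, detection differed by probe. For Fgf13, probe ILMN_2745480 was detected on all 35 arrays and probe ILMN_2707356 on 0. For Fgf10, probe ILMN_2736496 was detected on 33 arrays and probe ILMN_1213777 on 1. The other untested probes were 1 of Fgf1 (1 array), 2 of Fgfr2 (4 and 0 arrays) and 1 of Fgfr3 (1 array). Genes with a single tested probe are given below by their symbol alone, and no probe's level was set against that of another.

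**Figure D1:**
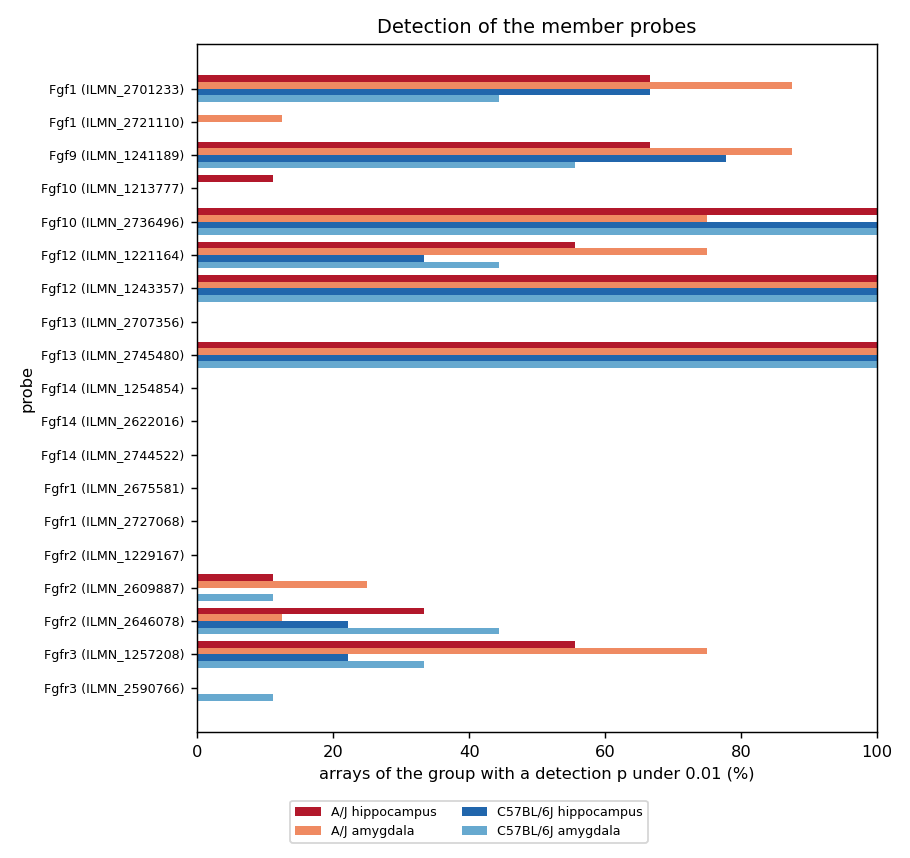
Share of arrays in each group (percent, x axis) on which each of the 19 member probes (y axis) was detected, with a bar per group. The Fgf13 probe ILMN_2745480 and the Fgf12 probe ILMN_1243357 reached all 35 arrays, while Fgf14 and Fgfr1 reached none.

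Between regions, 3 of the 8 tested member probes were called, against 12.2% of all tested probes. Fgf10 and Fgf13 were higher in hippocampus and 1 probe of Fgf12 was lower. The paper already places Fgf10 and Fgf13 in a gene group that separated the regions on these arrays. The members were chosen with earlier results of these data known, so the count is a description and no independent excess. The median difference over all tested probes was 0.00. In bulk punches, fewer cells of a type and less RNA per cell cannot be told apart.

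Among the secreted ligands, Fgf10, known for signalling through Fgfr2 in limb and lung development, separated the regions in both strains. In A/J, its lowest, median and highest levels were 8.67, 9.10 and 9.59 in hippocampus, against 5.18, 5.71 and 6.10 in amygdala. In C57BL/6J they were 7.72, 7.90 and 8.73 in hippocampus, against 5.72, 6.48 and 7.33 in amygdala. Every hippocampus array lay above every amygdala array, a separation seen in 1.31% of tested probes over both strains and in 2.48% within C57BL/6J. The difference over both strains was 2.55 (SE 0.14, limma adjusted p = 1.1e-16). It was positive on 10 of the 10 chips that held both regions, between 0.79 and 3.28, and was 2.44 in chip lot 1 and 2.59 in chip lot 2. Fgf10 was detected on 18 of 18 hippocampus and 15 of 17 amygdala arrays. The amygdala arrays without detection were 2 of the 8 of A/J, whose group mean of 5.69 was near the mean of their lowest detected levels (5.50), so fold changes of A/J rest there on values near the background.

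Within A/J, 2 of the 8 tested member probes, Fgf10 and Fgf13, were called between regions, against 8.63% of all tested probes, and within C57BL/6J the same 2, against 6.1%. Within A/J, the hippocampus exceeded the amygdala in Fgf10 by 3.46 (SE 0.20, an 11-fold difference, limma adjusted p = 2.0e-15), and within C57BL/6J by 1.65 (SE 0.20, 3.13-fold, adjusted p = 6.3e-08). The C57BL/6J call was lost in chip lot 2 alone (1.49, adjusted p = 0.0337), and on the authors' processed values the differences were 0.57 in A/J and 0.21 in C57BL/6J, both called. The interaction, 3.46 in A/J minus 1.65 in C57BL/6J, was 1.81 (SE 0.28, 95% interval 1.24 to 2.39, limma adjusted p = 4.4e-04). Fgf10 was the only member probe called for it, 1 of 8, against 0.0673% (7) of all tested probes. The paper had listed Fgf10 among genes whose region difference depended on strain in these data, so this count is a description too. The interaction call was lost within each chip lot, at 1.56 (limma adjusted p = 0.747) in lot 1 and 2.19 (adjusted p = 0.156) in lot 2. Each lot held fewer arrays, and the cause of the loss was not tested.

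The strain difference in Fgf10 was positive in hippocampus and negative in amygdala, the second at the threshold and not stable. It was the 1 member probe of 8 called between strains within hippocampus, against 3.38% of all tested probes, and within amygdala, against 4.02%. In hippocampus, A/J averaged 9.15 ± 0.31 and C57BL/6J 8.13 ± 0.42 (SD, n = 9 each), a difference of 1.02 (SE 0.20, limma adjusted p = 4.1e-04), and the ranges met only at their edges, 8.67 being the lowest A/J and 8.73 the highest C57BL/6J value. Chip lots 1 and 2 alone gave 1.03 (adjusted p = 0.061) and 0.92 (adjusted p = 0.15). In amygdala, A/J averaged 5.69 ± 0.28 (SD, n = 8) and C57BL/6J 6.48 ± 0.58 (SD, n = 9), a difference of -0.79 (SE 0.20, limma adjusted p = 0.00999). This stood at the threshold, and the call was lost on leaving out any 1 of 27 of the 35 arrays, with adjusted p between 0.00289 and 0.0314 over all 35. It was also lost under 10 of the 13 other settings, among them each chip lot alone (-0.53, adjusted p = 0.521, and -1.27, adjusted p = 0.0601), common-median scaling (-0.42, adjusted p = 0.212) and the authors' processed values, where it was -0.04 (adjusted p = 0.624). On those processed values, which are on a scale of their own, the hippocampus difference was 0.32 (limma adjusted p = 4.1e-06) and the interaction 0.36 (adjusted p = 0.00733). In order, the mean Fgf10 level was highest in A/J hippocampus, then C57BL/6J hippocampus, C57BL/6J amygdala and A/J amygdala. Within each region the strains overlapped in range.

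**Figure D2:**
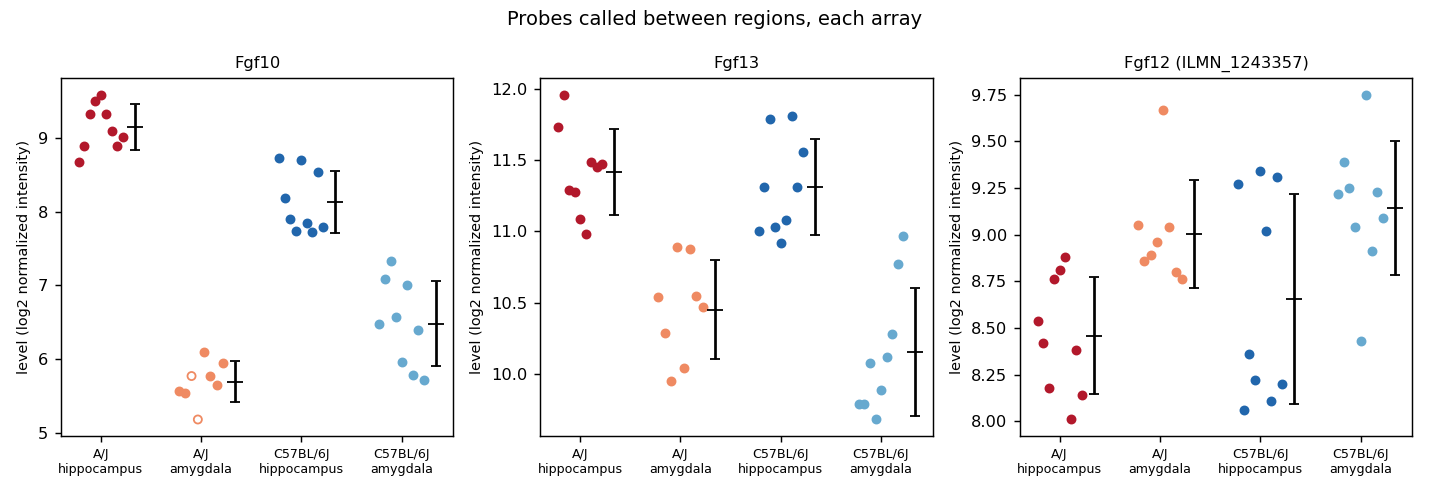
Level (log2 normalized intensity, y axis) of Fgf10, Fgf13 and the Fgf12 probe ILMN_1243357 on each array of the 4 groups (x axis), with the mean and SD beside each group; open circles are arrays without detection. Fgf10 lay between 7.72 and 9.59 in hippocampus and between 5.18 and 7.33 in amygdala, while the Fgf12 ranges of the regions overlapped.

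Among the intracellular FGFs, Fgf13, which lies on the X chromosome, was higher in hippocampus in both strains. In A/J, its lowest, median and highest levels were 10.98, 11.45 and 11.96 in hippocampus, against 9.95, 10.50 and 10.89 in amygdala. In C57BL/6J they were 10.92, 11.31 and 11.81 in hippocampus, against 9.68, 10.08 and 10.97 in amygdala. The regions did not overlap in A/J, as for 3.64% of tested probes there, and in C57BL/6J 1 amygdala array passed the lowest hippocampus array. The difference was 1.06 (SE 0.12, 2.09-fold, limma adjusted p = 1.9e-08) and positive on 10 of 10 chips, between 0.50 and 1.52. It was 0.96 (SE 0.18, adjusted p = 1.3e-04) within A/J and 1.16 (SE 0.17, adjusted p = 5.1e-06) within C57BL/6J. The interaction of -0.19 had a 95% interval of -0.70 to 0.31 and was not called (limma adjusted p = 0.811). Scaling each array to a common median ended both calls within a strain, at 1.02 (adjusted p = 0.105) in A/J and 1.32 (adjusted p = 0.0195) in C57BL/6J. Within A/J, chip lots 1 and 2 alone gave 0.86 (adjusted p = 0.0697) and 1.05 (adjusted p = 0.0256), and within C57BL/6J 1.03 (adjusted p = 0.00302) and 1.57 (adjusted p = 0.0231).

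Fgf12 ran the other way. The levels of its probe ILMN_1243357 in A/J (lowest, median, highest) were 8.01, 8.42 and 8.88 in hippocampus, against 8.76, 8.93 and 9.67 in amygdala. In C57BL/6J they were 8.06, 8.36 and 9.34 in hippocampus, against 8.43, 9.22 and 9.75 in amygdala. The regions overlapped in both strains, and the difference of -0.52 (SE 0.14, amygdala 1.43-fold higher, limma adjusted p = 0.00463) was negative on 8 of 10 chips. The difference was -0.55 (adjusted p = 0.0584) in A/J and -0.49 (adjusted p = 0.109) in C57BL/6J, neither called. Its call over both strains was lost with arrays scaled to a common median (-0.49, adjusted p = 0.0784), with the authors' processed values (-0.18, adjusted p = 0.0132), and with the chip as a fixed block (-0.48, adjusted p = 0.0143). It was also lost in chip lots 1 and 2 alone (-0.56, adjusted p = 0.0896, and -0.57, adjusted p = 0.129). The other Fgf12 probe, ILMN_1221164, which the platform ties to another transcript, was detected on 18 arrays. It differed by -0.31 between regions (95% interval -0.84 to 0.22, limma adjusted p = 0.521).

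Fgf1, an acidic FGF that binds every FGF receptor, varied more between arrays than any other member probe tested. Its level in A/J (lowest, median, highest) was 5.16, 6.56 and 8.53 in hippocampus, against 5.56, 8.75 and 9.16 in amygdala. In C57BL/6J it was 4.76, 6.62 and 8.39 in hippocampus, against 4.79, 5.66 and 8.83 in amygdala. The ranges overlapped in both strains, and the region difference of -0.90 (SE 0.43, 95% interval -1.79 to -0.02) was not called (limma adjusted p = 0.174). Within A/J it was -1.64 (SE 0.62, adjusted p = 0.0828). With the number of detected probes on each array as a covariate, both were called, at -0.71 (adjusted p = 0.00387) over both strains and -1.38 (adjusted p = 1.9e-04) within A/J, while chip lot 2 alone gave -0.11 (adjusted p = 0.977) over both strains. Fgf9, a neuron-derived ligand in the brain, averaged 6.15 ± 0.48 in hippocampus (SD, n = 18) and 6.15 ± 0.72 in amygdala (SD, n = 17). Its region difference was -0.01 (95% interval -0.42 to 0.40, limma adjusted p = 0.987).

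Both receptors with a tested probe lay near the limit of detection. Fgfr2, a receptor of oligodendrocytes among other cells, was detected on 10 arrays and averaged 5.39 ± 0.41 in hippocampus (SD, n = 18) and 5.33 ± 0.64 in amygdala (SD, n = 17). The difference of 0.08 had a 95% interval of -0.26 to 0.42 (limma adjusted p = 0.856). Fgfr3, known in the brain from astrocytes, was detected on 16 arrays and averaged 5.67 ± 0.53 in hippocampus and 5.86 ± 0.72 in amygdala, with a difference of -0.21 (95% interval -0.60 to 0.17, adjusted p = 0.555). Differences near the background are compressed on this scale, so these intervals cover the fitted values only.

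Averaged over regions, none of the 8 tested member probes was called between strains with limma, against 5.89% of all tested probes. At an unadjusted p under 0.05 there was 1, Fgfr3. Fgfr3 was nearest to the threshold, at 0.55 (SE 0.19, 95% interval 0.17 to 0.93, limma adjusted p = 0.0659), and was detected on 11 of 17 A/J and 5 of 18 C57BL/6J arrays. Array quality weights brought it past the threshold (0.80, adjusted p = 3.9e-04) and Fgf1 too (1.18, adjusted p = 0.00521; unweighted 0.85, adjusted p = 0.265). With the chip as a fixed block both shrank, Fgfr3 to 0.21 (adjusted p = 0.581) and Fgf1 to 0.30 (adjusted p = 0.848), and with the number of detected probes as a covariate Fgf1 was 0.38 (adjusted p = 0.244). With the authors' processed values they were 0.02 (adjusted p = 0.139) for Fgfr3 and 0.12 (adjusted p = 0.199) for Fgf1. With the authors' processed values, Fgf10 was called instead, with a difference of 0.14 (adjusted p = 0.00347). The remaining strain differences were 0.23 for Fgf9, 0.20 for Fgf13, -0.16 for Fgfr2, and 0.25 and -0.17 for the Fgf12 probes ILMN_1221164 and ILMN_1243357. Whether A/J sequence differs under any of these probes was not tested.

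**Figure D3:**
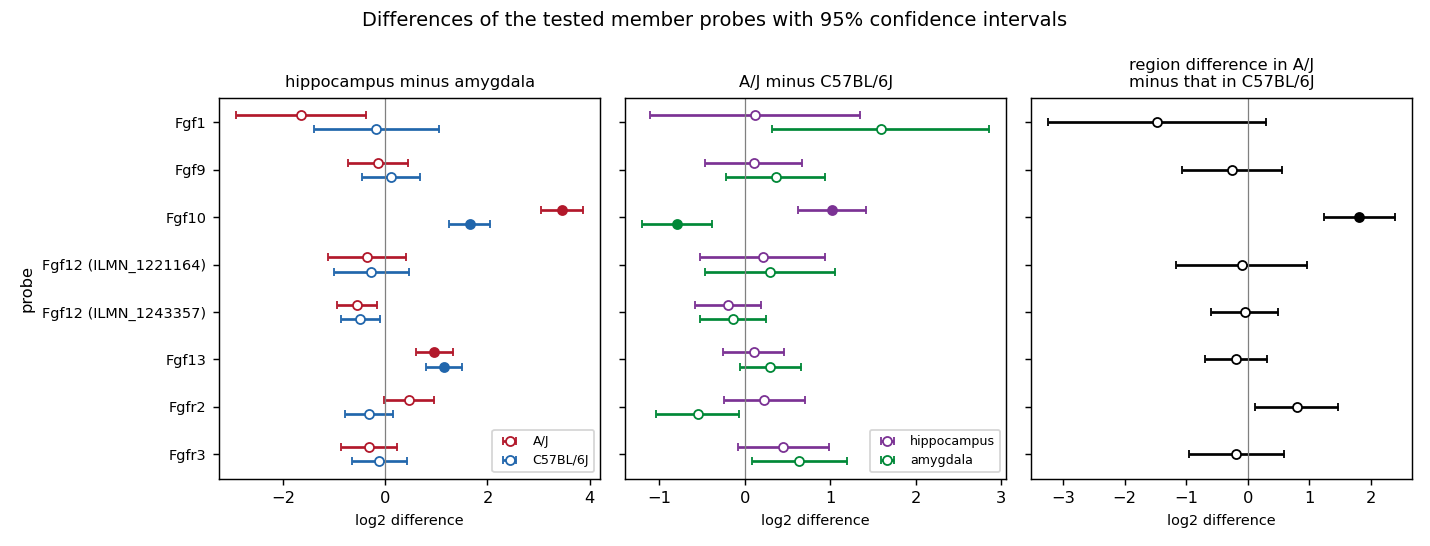
Log2 differences (x axes) of the 8 tested member probes (y axis) between regions within each strain, between strains within each region, and their interaction; points are limma estimates, lines 95% intervals, and filled points adjusted p under 0.01. Fgf10 had the only called interaction, 1.81, and its strain differences were 1.02 in hippocampus and -0.79 in amygdala. The second was -0.04 with the authors' processed values, which are on another scale.

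The levels of several members followed how many probes an array detected. Over 35 arrays, Pearson's r with that number was 0.861 for Fgf1 and Spearman's rho was 0.838. Both had a permutation p of 1.0e-05, the lower limit of 100000 permutations. Without the 2 arrays farthest from the median number it was 0.845, and it was 0.821 in chip lot 1 and 0.912 in chip lot 2. Of the 8 relations computed, those of Fgf1, Fgf9 (0.855), the Fgf12 probe ILMN_1221164 (0.819) and Fgfr3 (0.692) were positive at a Benjamini-Hochberg adjusted p of 2.0e-05. Fgfr2 (-0.457, adjusted p = 0.008) and the Fgf12 probe ILMN_1243357 (-0.380, adjusted p = 0.032) were negative. Fgf10 and Fgf13 fell into separate levels by region, so their relations are given within the groups, as a description over 8 or 9 arrays each. There r for Fgf10 was -0.936 in A/J hippocampus, -0.267 in A/J amygdala, -0.822 in C57BL/6J hippocampus and -0.820 in C57BL/6J amygdala. For Fgf13 it was 0.879, 0.422, 0.475 and 0.821 in the same groups. With the number of detected probes as a covariate, the Fgf10 region difference was 2.50 and its interaction 1.78 (limma adjusted p = 7.0e-07), and the Fgf13 region difference was 1.10, so these differences were of like size with it in the fit.

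**Figure D4:**
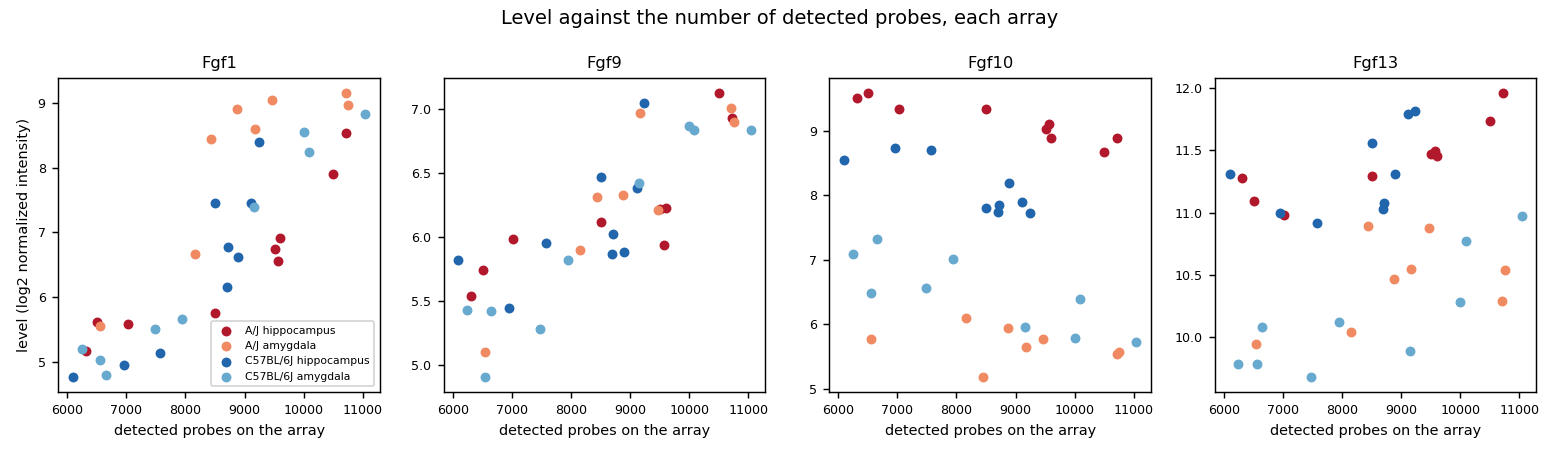
Level (log2 normalized intensity, y axes) of Fgf1, Fgf9, Fgf10 and Fgf13 against the number of detected probes on each of 35 arrays (x axes), coloured by group. Fgf1 and Fgf9 climbed with the number of detected probes in all groups (r of 0.861 and 0.855 overall), while Fgf10 and Fgf13 fell into levels by region.

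Deviations from the group means showed how the members moved together from array to array. Fgf1 and Fgf9 had r = 0.911, and Fgf1 and the Fgf12 probe ILMN_1221164 had 0.878, while Fgf1 and Fgf10 had -0.777, each over 35 arrays that shared these differences in detection. Outside the members, the genes most like Fgf10 in level over the 35 arrays were Tmem114 (r = 0.950) and Lurap1l (0.939). Those most like Fgf13 were Nfib, a transcription factor of forebrain development (0.939), and Pkp2, a desmosome protein (0.939). Since Fgf10 and Fgf13 separated the regions, genes chosen for this likeness do so too, and as a description their region differences were 2.41 for Tmem114, 1.92 for Lurap1l, 1.48 for Nfib and 1.58 for Pkp2. The Fgf12 probe ILMN_1243357 was nearest to Ncl (0.872) and Tulp4 (0.866), Fgf1 to Zfp612 (0.967) and Exoc4 (0.965), and Fgf9 to Cpe (0.938) and Rims2 (0.936). Fgfr2 was nearest to Tmem184a (0.859) and Msx3 (0.828), and Fgfr3 to Nipsnap2 (0.899) and Eef2 (0.897).

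The rest of the pathway was taken from 7 lists of 102 genes, of which 82 had a probe and 40 were tested. By region, 8 of the 40 were called, 4 higher and 4 lower in hippocampus, against 12.2% of all tested probes. By strain, 2 of the 40 were called, 1 higher and 1 lower in A/J, against 5.89%, and 0 were called for the interaction, against 0.0673%. Among the other FGF ligands, Fgf5 was detected on 10 of 18 hippocampus and 0 of 17 amygdala arrays, and its hippocampus mean of 5.67 lay at the lowest level those arrays detected. It entered the tested probes only through hippocampus and is 1 of the 4 counted as higher, so no fold or p is given for it.

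Of the co-receptors and ligand-binding proteins, 4 of 9 tested were called by region, against 12.2% of all tested probes, and 2 by strain, against 5.89%. The glypican Gpc1, a heparan sulfate proteoglycan, averaged 11.58 ± 0.29 in hippocampus (SD, n = 18) and 10.58 ± 0.26 in amygdala (SD, n = 17), with an adjusted p of 8.5e-10 in limma. The syndecan Sdc2 was lower by 1.04 (SE 0.12, adjusted p = 8.0e-09), the glypican Gpc3 by 0.64 (SE 0.13, adjusted p = 3.3e-04), and Ncam1, an adhesion protein that can bind FGF receptors, by 0.69 (SE 0.15, adjusted p = 5.5e-04). Between strains, Sdc4 averaged 7.58 ± 0.55 in A/J (n = 17) and 9.50 ± 0.33 in C57BL/6J (SD, n = 18), with no overlap of the arrays (6.78 to 8.70, against 8.84 to 10.20), a difference of -1.93 (limma adjusted p = 1.0e-12). A lack of overlap between strains occurred in 1.18% of tested probes. Ncam1 was higher in A/J by 0.57 (limma adjusted p = 0.00788). Its means were 9.48 in A/J hippocampus, 10.55 in A/J amygdala, 9.29 in C57BL/6J hippocampus and 9.60 in C57BL/6J amygdala. Its region and strain differences average over these groups, of which A/J amygdala stood highest. The Ncam1 interaction of -0.76 was not called (limma adjusted p = 0.471). The paper reports sequence differences between the strains under many probes of a gene group that was lower in A/J. Whether A/J sequence differs under the Sdc4 or Ncam1 probe was not tested.

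Downstream of the receptors, the docking protein Gab1 was the one call by region among 10 tested signalling genes, against 12.2% of all tested probes. Gab1 was lower in hippocampus by 0.85 (SE 0.12, limma adjusted p = 1.4e-06). Its means in hippocampus and amygdala were 8.72 and 9.94 in A/J, and 8.89 and 9.37 in C57BL/6J. The Gab1 interaction of -0.74 was not called (limma adjusted p = 0.351). Of 6 tested feedback inhibitors and targets, 2 were called by region, against the same 12.2%. Dusp6, a phosphatase of ERK, and Spry4, a Sprouty inhibitor, were higher in hippocampus by 0.72 (SE 0.16, limma adjusted p = 0.00105) and 0.59 (SE 0.14, adjusted p = 0.00182). The median over the 6 was 0.39, against 0.00 over all tested probes. Spred2 (0.41, adjusted p = 0.0193) and the ETS factors Etv1, Etv4 and Etv5 (0.09, 0.38 and -0.27) were not called. None of the 7 tested heparan sulfate enzymes was called by region or strain, against 12.2% and 5.89% of all tested probes. Nor were the 3 tested sodium channel and partner genes Scn1a, Scn3b and Mapk8ip2, nor Fgfrl1, the receptor without a kinase domain (region difference 0.37, limma adjusted p = 0.0542). With so few genes per list, nothing about a list as a whole is drawn from these counts.

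Cell type markers also moved between the regions. The counts of markers higher or lower by region below stand against 12.2% of all tested probes called. All 3 tested glutamatergic neuron markers were higher in hippocampus (Slc17a7 by 2.86), and their summed normalized intensity was 8537 to 17172 in A/J hippocampus and 2547 to 3827 in A/J amygdala, and 11036 to 21172 in C57BL/6J hippocampus and 2500 to 8043 in C57BL/6J amygdala. Both tested GABAergic markers, Gad1 and Slc32a1, were lower, with sums of 3462 to 5702 in A/J hippocampus and 9429 to 18458 in A/J amygdala, and 3855 to 6448 in C57BL/6J hippocampus and 6693 to 15573 in C57BL/6J amygdala. Oligodendrocyte markers were lower in hippocampus in 5 of 6 tested. Mbp, with the highest mean of the 6 and so a large part in their sum, was not called (-0.57, limma adjusted p = 0.125). Their sums were 11166 to 32377 in A/J hippocampus and 28084 to 57568 in A/J amygdala. In C57BL/6J they were 15347 to 43657 in hippocampus and 19016 to 47840 in amygdala. Of the oligodendrocyte precursor markers, Pdgfra was lower by 0.52 (adjusted p = 0.00335) and Cspg4 was not called, with sums of 520 to 1072 in A/J hippocampus and 649 to 1131 in A/J amygdala, and 504 to 1031 in C57BL/6J hippocampus and 576 to 1307 in C57BL/6J amygdala. Of the choroid plexus markers, Clic6 was lower by 2.66 (limma adjusted p = 5.8e-11). Ttr went the other way and was not called (0.68, adjusted p = 0.65), and Folr1, detected on 1 array, was not tested. Sums of Clic6 and Ttr were 94.3 to 13393 in A/J hippocampus and 450 to 10174 in A/J amygdala. In C57BL/6J they were 199 to 4588 in hippocampus and 266 to 17718 in amygdala. Of the meninges and fibroblast markers, Dcn was the one tested and was higher by 1.20 (adjusted p = 1.7e-05), at 334 to 1201 in A/J hippocampus and 182 to 352 in A/J amygdala, and 355 to 1731 in C57BL/6J hippocampus and 206 to 989 in C57BL/6J amygdala. None of the 5 astrocyte, 4 microglia and 4 endothelial markers tested was called by region. Between strains, 1 of the 4 tested microglia markers was called, against 5.89% of all tested probes. This was C1qb, with a difference of -1.13 (limma adjusted p = 2.9e-06). The others did not share 1 direction and were not called, at -0.79 for C1qa, -0.01 for Aif1 and 0.85 for Cx3cr1. Whether A/J sequence differs under the C1qb probe was not tested. The neuronal markers Neurod6 and Gad2, the astrocyte marker Slc1a2, the choroid plexus marker Kcne2 and the fibroblast markers Col1a2 and Lum were detected on no array. The part of the moving markers in the region differences of Fgf10, Fgf13 and Fgf12 was not tested.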

How the data were processed

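RNA of hippocampus and amygdala punches was hybridized to Illumina MouseRef-8 arrays. Signals were extracted in BeadStudio, with background subtraction, by the authors and deposited as linear signal intensities, of which 31.0% were at or below 0, without normalization between arrays. The deposited detection score equals 1 minus a p-value for detection. A score written as 100,000 was read as 1. The deposited log2 values, processed by the authors with Lumi, were used as an alternative only. Gene symbols came from the platform annotation, with 20984 probes carrying 1 symbol.

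Signals underwent normexp background correction based on those p-values, were given an offset of 16, quantile normalized and log2 transformed (neqc, limma 3.58.1, R 4.3.3). Probes detected at p under 0.01 on at least 8 arrays (10408) entered 1 limma fit of 4 group means, with Benjamini-Hochberg adjustment over these probes at a threshold of 0.01. The region and strain differences average over the other factor. A list used 1 probe per gene, the tested probe of highest mean. The fit was tested on simulated data.

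All member probes were named. From each pathway list, up to 4 genes with the largest called region and strain differences were named, as were the 2 genes most correlated with each member. The members and lists were chosen with earlier results of these data known. Precision is limited by the 8 or 9 arrays per group. Alternatives covered scaling, background, offset, detection filter, chip and chip lot, detected probes as a covariate, array weights and leaving out each array. No array was left out of the comparisons.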

Additional observations from a re-analysis of the deposited data

Results flagged for a closer look

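Fgf10 differed between the strains in its region difference, by 1.81 on the log2 scale (limma interaction, adjusted p = 4.4e-04), the region difference being 3.46 in A/J and 1.65 in C57BL/6J. In both strains every hippocampus array lay above every amygdala array, and leaving out any 1 array gave 1.71 to 1.91. The paper had already listed Fgf10 for such a dependence on strain in these data.

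Of 32 sets of arrays, 8 probes in 4 groups, 1 held an array far from the others. It was the highest A/J amygdala array of the Fgf12 probe ILMN_1243357, at 9.67 against 9.05 for the next, a gap of 0.680 of the group's range. Chance alone marks about 1 in 20 groups.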

How the results depend on the processing

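No paired analysis was possible because the labels carry no replicate numbers and do not tie hippocampus and amygdala arrays to animals. Detection limits the receptors and Fgf1, Fgf9 and the Fgf12 probe ILMN_1221164, whose arrays were in part without signal above background. Against 13 alternatives and 35 left-out arrays, the region calls of Fgf10 and Fgf13 held in every one, with differences of 0.39 to 2.62 for Fgf10 and 0.88 to 1.31 for Fgf13. The lowest of Fgf10 came from the authors' processed values, which are on another scale. For the changes below the cause was not tested. Single lots hold fewer arrays, and the part of this in their lost calls was not tested either.

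With common-median scaling, the probes called were 649 by region and 364 by strain, 369 and 283 by region within A/J and C57BL/6J, and 199 and 207 by strain within hippocampus and amygdala. The median strain difference of all tested probes was 0.25 there, against 0.05 in the original scaling. Chip lot 1 alone gave 679 by region, 315 by strain, 1 for the interaction, 312 and 368 by region within A/J and C57BL/6J, and 171 and 186 by strain within hippocampus and amygdala. Chip lot 2 alone gave 368, 241, 0, 240, 110, 133 and 117 in the same order. Array quality weights gave 2125, 1754, 169, 3128, 678 and 2409, without the region count of C57BL/6J. With the chip as a fixed block the interaction had 4 calls, and with the number of detected probes as a covariate it had 14 and the region count of C57BL/6J was 1016. Leaving out 1 array gave 6 to 12 calls for the interaction. Of the interaction calls, 3 were positive and 2 negative with the authors' processed values, against 3 and 4 in the original fit.

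Of the member probes, 0 were called for the interaction in either lot alone. By region within A/J it was 1 with common-median scaling and in either lot, and 4 with array weights. Within C57BL/6J it was 1 with common-median scaling and 0 in lot 2. By strain, 1 was called with the processed values and 2 with weights. In hippocampus 0 were called in either lot. In amygdala 2 were called with the covariate, 4 with weights and 0 under the other settings but the chip as a random block, and 0 to 1 on leaving out an array.

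Uncalled differences changed sign under some settings. The Fgf9 region difference became 0.01 without normexp, 0.00 with the processed values, 0.01 with the lot as a block, 0.35 in lot 2 and 0.07 with the covariate, and -0.10 to 0.05 on leaving out an array. In lot 2, the Fgf10 strain difference was -0.17, the Fgfr2 region difference -0.23, the Fgf12 region difference (ILMN_1221164) 0.18 and the Fgf12 interaction (ILMN_1243357) 0.34. The interaction of this last probe was 0.24 with the chip as a fixed block, 0.07 with it as a random block and 0.01 with weights, and -0.13 to 0.04 on leaving out an array, and its strain difference was 0.10 with common-median scaling. For ILMN_1221164, the strain difference was -0.18 with the chip as a fixed block and -0.00 in lot 1, and the interaction 0.02 in lot 1 and -0.29 to 0.08 on leaving out an array.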
